A study of Homo sapiens with 10 samples.

Results

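Expression of the carnitine shuttle genes was examined in LNCaP-C4-2 cells, a human castration-resistant prostate cancer line in which CPT1A had been lowered or raised with lentivirus. The 8 genes were chosen by name for their place around CPT1A: CPT1A, CPT1B, CPT1C, CPT2, SLC25A20, CRAT, CROT and SLC22A5. The count table holds 57353 gene symbols and contains 8 of these 8, and 8 of the 17230 genes that passed the filter on low counts belong to the shuttle. In the knockdown arm, NT cells carried a non-targeting (scrambled) shRNA (2 samples) and KD cells carried 1 shRNA against CPT1A (3 samples), and both were selected in 1 µg/ml puromycin. In the over-expression arm, EV cells carried empty vector virus (2 samples) and OE cells carried a CPT1A cDNA (3 samples), and both were selected in 5 µg/ml of the drug that the labels spell Blasticin. Each construct is represented by 1 line without repeated transductions in the sources used here. The p-values therefore measure the spread between samples of a line, which may be technical.

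The libraries were made from poly(A) RNA and held 23555205 to 28615770 counts. The defining markers of luminal prostate cells were at 322.5 CPM (counts scaled to library size with TMM) or above for 9 of 9 genes. Their summed level was 6356 to 6636 CPM in NT and 9138 to 9993 in KD, and 8726 to 9157 in EV against 12197 to 12663 in OE. KLK3 was the largest part of each sum. FOLH1 went the other way, with means of 1003 CPM in NT and 686 in KD, and 823 in EV against 747 in OE. TMPRSS2 was lower in OE (1033 CPM) than in EV (1154 CPM). By line mean the other markers were higher in both manipulated lines. Among markers of other cells, TP63 had at most 1 count and KRT5 had 0 (basal), PTPRC had at most 1 (leukocyte), PECAM1 had 0 (endothelium), and CHGA and INSM1 had at most 1 and CHGB 0 (neuroendocrine). COL1A1 was the 1 stromal marker with more than 2 counts, since COL1A2 had 0, DCN at most 1 and LUM at most 2. The summed level of the 4 stromal markers was therefore nearly that of COL1A1 alone. It was 9.17 to 10.4 CPM in NT, 14.7 to 15.7 in KD, 8.46 to 9.78 in EV and 10.9 to 12.8 in OE. Samples KD 2 and OE 2 stood farther from their own replicates than the other samples did. The chi-square per degree of freedom was 7.13 and 7.28 for the pairs with KD 2 and 2.35 for the other KD pair. It was 4.05 and 4.69 for the pairs with OE 2 and 2.23 for the other OE pair. In bulk RNA, fewer cells of a type and less RNA per cell cannot be told apart, and the part of these differences in the results was not tested.

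Long-chain fatty acids cannot cross the inner mitochondrial membrane as CoA esters, and the carnitine shuttle moves them. CPT1A of the outer membrane swaps CoA for carnitine. SLC25A20 exchanges the acylcarnitine for free carnitine across the inner membrane, and CPT2 restores the CoA ester in the matrix, where beta-oxidation begins. CRAT handles short acyl groups such as acetyl, CROT handles medium-chain groups made in peroxisomes, and SLC22A5 brings carnitine into the cell. CPT1A is the isoform of liver and most other tissues, CPT1B that of muscle and heart, and CPT1C that of brain, and malonyl-CoA inhibits CPT1. Prostate tumours are known for their use of fatty acids.

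On GRCh38 the 8 genes lay on 8 different chromosomes, by GENCODE v44. CPT1A was at chr11:68754620-68844410 on the minus strand, CPT1B at chr22:50568861-50578465 on the minus strand and CPT1C at chr19:49690898-49713731 on the plus strand. CPT2 was at chr1:53196792-53214197 (plus), SLC25A20 at chr3:48856926-48898904 (minus), CRAT at chr9:129094142-129111189 (minus), CROT at chr7:87345664-87399794 (plus) and SLC22A5 at chr5:132369710-132395613 (plus). The sequences just upstream of the starts of 4 genes with a call in at least 1 arm are shown because 2 of the 4 (CPT2 and SLC25A20) rose in both arms and the other 2 (CROT and SLC22A5) fell with the cDNA. They are from RefSeq (GRCh38.p14), on the strand of the gene, and capitals mark GC boxes (GGGCGG or its reverse complement CCGCCC) and CCAAT boxes (CCAAT or ATTGG). CROT is at chr7:87345414-87345663, SLC22A5 at chr5:132369460-132369709, CPT2 at chr1:53196574-53196791 and SLC25A20 at chr3:48898905-48899132.
CROT: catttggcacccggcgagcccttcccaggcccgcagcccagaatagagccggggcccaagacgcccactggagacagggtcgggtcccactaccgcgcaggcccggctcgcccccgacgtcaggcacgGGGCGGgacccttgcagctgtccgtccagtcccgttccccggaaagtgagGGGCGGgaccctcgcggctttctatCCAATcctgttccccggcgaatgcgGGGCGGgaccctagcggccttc
SLC22A5: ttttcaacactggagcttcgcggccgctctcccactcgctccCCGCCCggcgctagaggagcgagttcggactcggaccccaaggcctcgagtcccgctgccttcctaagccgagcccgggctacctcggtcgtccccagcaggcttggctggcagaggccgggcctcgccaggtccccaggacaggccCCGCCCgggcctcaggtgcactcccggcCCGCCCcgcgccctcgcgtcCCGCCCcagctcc
CPT2: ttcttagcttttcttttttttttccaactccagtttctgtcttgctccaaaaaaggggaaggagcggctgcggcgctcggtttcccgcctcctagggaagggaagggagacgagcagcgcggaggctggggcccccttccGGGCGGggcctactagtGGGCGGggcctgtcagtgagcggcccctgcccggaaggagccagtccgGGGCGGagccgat
SLC25A20: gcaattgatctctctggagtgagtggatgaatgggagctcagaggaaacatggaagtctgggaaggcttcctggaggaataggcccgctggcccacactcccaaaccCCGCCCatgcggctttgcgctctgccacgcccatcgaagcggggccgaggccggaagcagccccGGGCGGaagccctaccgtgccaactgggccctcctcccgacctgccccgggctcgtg

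The stretch of CROT held 3 GC boxes and 1 CCAAT box in 250 bases, that of SLC22A5 held 4 GC boxes in 250 bases, that of CPT2 held 3 in 218 bases and that of SLC25A20 held 2 in 228 bases. Of 34941 windows of 250 bases upstream of genes, 42.5% held a GC box and 32% a CCAAT box, on either strand. GC content was 74% for SLC22A5, 70.8% for CROT, 66% for SLC25A20 and 65.2% for CPT2 over the same length, against a median of 58% over the windows. None of the 4 windows held AGGTCA (the half-site of nuclear receptors, in 12.1% of windows), TATAAA (10.8%), CACGTG (6.32%) or TTGCATCA (0.776%), searched on both strands. A match is a description of letters and not a site, and the genes that rose in both arms and those that fell with the cDNA shared GC boxes.

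The manipulated gene was read in each sample. CPT1A, which catalyses the rate-controlling step of the shuttle, was at 265.5 and 261.7 CPM in NT and at 81.2, 86.4 and 86.2 CPM in KD. It was at 325.7 and 317.7 CPM in EV and at 869.8, 913.8 and 861.1 CPM in OE. The samples of the 4 lines did not overlap in this gene, and the 2 control lines differed too. Counts of OE cells add the introduced copy to the cells' own, and these cannot be told apart. The log2 fold change was -1.64 (SE 0.0472) in KD against NT, with an adjusted p of 2.45e-18 by edgeR's quasi-likelihood test, and 1.45 (SE 0.0475) in OE against EV, with an adjusted p of 2.54e-17. Among all tested genes, 3.85% had a larger change than CPT1A in KD against NT and 2.97% in OE against EV.

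Of the 8 shuttle genes, 6 passed an adjusted p of 0.05 in OE against EV (4 higher, 2 lower), where 52% of all tested genes passed it, 25.6% higher and 26.4% lower. In KD against NT 6 of the 8 passed (3 higher, 3 lower), where 57.5% of all tested genes did, 29.1% higher and 28.4% lower. The share of shuttle genes that changed is to be read against those backgrounds, since more than 1 in 2 genes changed in either arm. The median log2 fold change of the 8 was 0.13 in OE against EV and -0.05 in KD against NT, beside -0.02 and -0.02 over all tested genes. The samples of a manipulated line and its control did not overlap for 6 of the 8 in each arm, and this was so for 68.9% and 70.6% of all tested genes. At the study's stricter limit, an adjusted p of 0.0001, 1 of the 8 was called in OE against EV (21.9% of all tested genes) and 4 in KD against NT (29.1%). Over the 5 comparisons, leaving out KD 2 or OE 2 ended the call of SLC25A20 in OE against EV (without OE 2, 0.20, adjusted p 0.113 by edgeR) and added that of CPT2 in OE against KD (without KD 2), and the other calls of the 8 genes stood. The patterns were not of 1 kind: CRAT moved with CPT1A, CROT moved against it, CPT2 and SLC25A20 rose in both arms, and CPT1C, SLC22A5 and CPT1B passed the test in at most 1 arm.

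**Figure D1:**
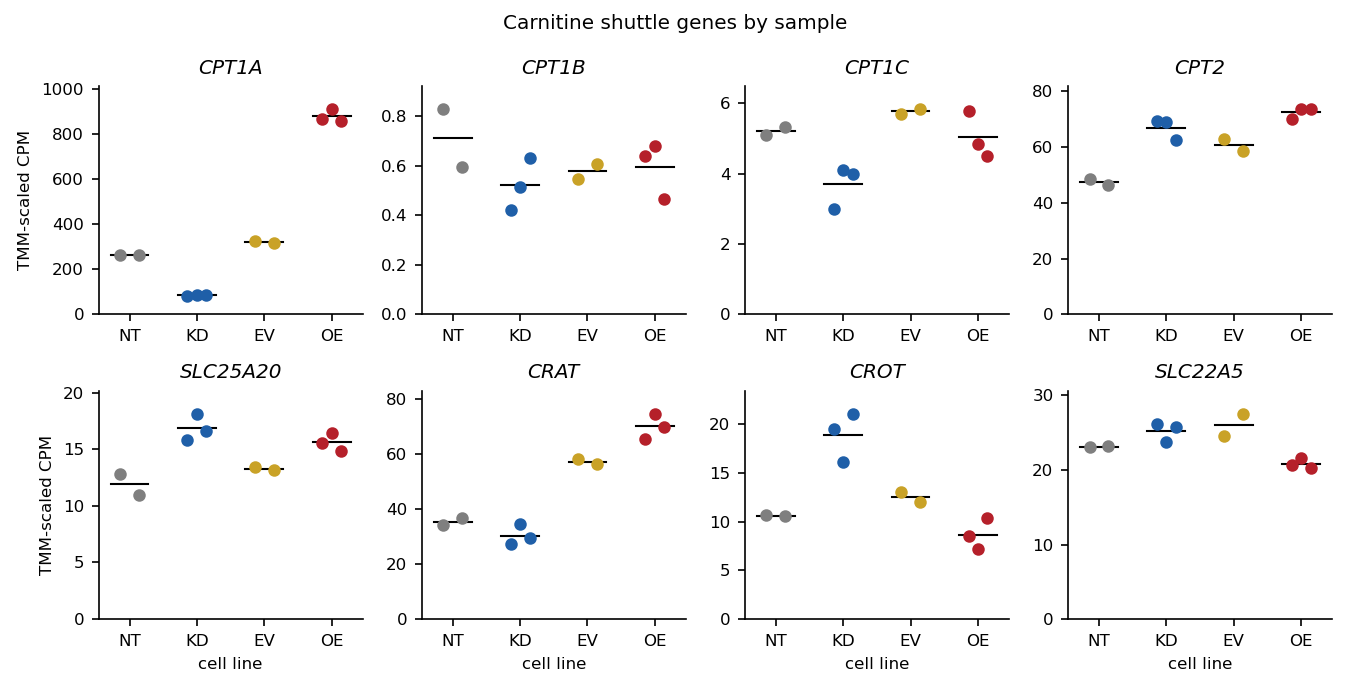
Level of each carnitine shuttle gene (TMM-scaled CPM, axes from 0) in the 2 NT, 3 KD, 2 EV and 3 OE samples, with points for samples and bars for line means. CROT was highest in KD (16.1 to 21.1 CPM) and lowest in OE (7.15 to 10.3 CPM), whereas CRAT was highest in OE (65.5 to 74.6 CPM).

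CROT, the peroxisomal carnitine octanoyltransferase, moved against CPT1A. It was at 10.6 and 10.6 CPM in NT and at 19.5, 16.1 and 21.1 CPM in KD. It was at 13.1 and 12.0 CPM in EV and at 8.5, 7.15 and 10.3 CPM in OE. Each KD sample lay above each NT sample, and each OE sample lay below each EV sample. In KD against NT the log2 fold change was 0.84 (SE 0.119, 95% interval 0.59 to 1.08, adjusted p 1.91e-06 by edgeR), a 1.78-fold rise. In OE against EV it was -0.53 (SE 0.127, 95% interval -0.79 to -0.27, adjusted p 0.00122). Without KD 2, the lowest KD sample, the rise was 0.94, and without OE 2, the lowest OE sample, the fall in OE was -0.41 (adjusted p 0.00954 by edgeR). A call in both arms with this pattern was found for 802 tested genes (4.65%).

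CRAT, the acetyltransferase that buffers acetyl-CoA against acetylcarnitine, moved with CPT1A, by less in the knockdown. In OE it was at 65.5, 74.6 and 69.8 CPM, and in EV at 58.1 and 56.4 CPM. In KD it was at 27.3, 34.4 and 29.3 CPM, and in NT at 34.1 and 36.7 CPM. The OE samples lay above the EV samples, while KD 2 lay between the NT samples, so KD and NT overlapped. CRAT changed by 0.29 (log2) in OE against EV (SE 0.0727, adjusted p 0.00178 by edgeR) and -0.22 in KD against NT (SE 0.079, adjusted p 0.0186). The knockdown call was lost without NT 2 (-0.17, adjusted p 0.184), KD 1 (-0.16, 0.0996) or KD 3 (-0.20, 0.0519), and the change without KD 2 was -0.32 (adjusted p 0.000163), all by edgeR. Like CPT1A, CRAT belonged to 639 tested genes (3.71%) that were called higher with the cDNA and lower with the shRNA. CRAT overlaps PTPA, on the opposite strand, by 240 bases, and reads there cannot be assigned without strand. It also overlaps the long noncoding RNA gene ENSG00000234055 by 2413 bases on the opposite strand, and the count table does not list that gene under this name. PTPA had 4391 to 7135 counts, against 712 to 1805 for CRAT, and its log2 fold change was 0.54 in OE against EV and 0.44 in KD against NT. CRAT and PTPA thus had opposite signs in the knockdown arm and the same sign in the over-expression arm. The part of shared reads in either was not tested.

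CPT2 and SLC25A20, the steps of the shuttle after CPT1, rose in both arms. CPT2, the inner-membrane transferase that restores the acyl-CoA, was at 48.5 and 46.3 CPM in NT and at 69.3, 69.1 and 62.7 CPM in KD. It was at 63.0 and 58.7 CPM in EV and at 70.2, 73.7 and 73.7 CPM in OE. Each manipulated sample lay above each sample of its control. CPT2 rose by a log2 fold change of 0.50 in KD against NT (SE 0.0594, adjusted p 1.28e-07 by edgeR) and 0.25 in OE against EV (SE 0.0582, adjusted p 0.000795). CPT2 overlaps CZIB by 99 bases on the opposite strand. It overlaps the long noncoding RNA gene ENSG00000236723 by 3993 bases, also on the opposite strand, and the count table does not list that gene under this name. CZIB had 509 to 735 counts, and its log2 fold change was -0.48 in KD against NT and -0.02 in OE against EV.

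SLC25A20, the carnitine-acylcarnitine translocase, was at 12.8 and 11 CPM in NT and at 15.8, 18.1 and 16.6 CPM in KD. It was at 13.4 and 13.1 CPM in EV and at 15.6, 16.4 and 14.9 CPM in OE. As with CPT2, the KD and OE samples lay above the samples of their controls. SLC25A20 rose by a log2 fold change of 0.50 in KD against NT (SE 0.0925, adjusted p 5.71e-05 by edgeR) and 0.23 in OE against EV (SE 0.0928, 95% interval 0.04 to 0.42, adjusted p 0.0398). The over-expression call was lost in 7 of 18 alternatives, with adjusted p from 0.0231 to 0.221 over the 18. Those that ended it were library size only, no filter, the DESeq2 Wald test and leaving out EV 1, EV 2, OE 1 or OE 2. A rise in both arms was called for 2352 tested genes (13.7%), CPT2 and SLC25A20 among them, and a fall in both arms for 2191 (12.7%), which held 0 of the 8.

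SLC22A5, the sodium-dependent carnitine transporter of the plasma membrane also called OCTN2, was lower with the cDNA. It was at 24.6 and 27.5 CPM in EV and at 20.6, 21.6 and 20.2 CPM in OE. It was at 23.1 and 23.2 CPM in NT and at 26.2, 23.7 and 25.7 CPM in KD. The groups did not overlap in either arm. The log2 fold change was -0.33 in OE against EV (SE 0.0751, adjusted p 0.000777 by edgeR). In KD against NT it was 0.13 (95% interval -0.03 to 0.28, adjusted p 0.154 by edgeR), which did not pass the test. MIR3936HG overlaps SLC22A5 by 461 bases on the opposite strand and had 53 to 168 counts. Its log2 fold change was -0.67 in OE against EV and -0.84 in KD against NT.

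The other CPT1 isoforms had few counts. CPT1C, the neuronal isoform, was at 5.09 and 5.32 CPM in NT and at 2.99, 4.10 and 3.98 CPM in KD. It was at 5.69 and 5.84 CPM in EV and at 5.78, 4.84 and 4.49 CPM in OE. KD lay below NT without overlap, and OE overlapped EV. The log2 fold change was -0.49 in KD against NT (SE 0.15, adjusted p 0.00694 by edgeR), a call lost without NT 2 (-0.46, adjusted p 0.0527). In OE against EV it was -0.19 (95% interval -0.49 to 0.10, adjusted p 0.27 by edgeR).

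CPT1B, the muscle isoform, had 11 to 22 counts per sample. It was at 0.830 and 0.596 CPM in NT, at 0.421, 0.513 and 0.630 in KD, at 0.546 and 0.608 in EV and at 0.638, 0.679 and 0.464 in OE. The groups overlapped in both arms. The log2 fold change was -0.44 in KD against NT (95% interval -1.17 to 0.28, adjusted p 0.291 by edgeR) and 0.03 in OE against EV (95% interval -0.73 to 0.80, adjusted p 0.952). CPT1B shares its exons with the read-through gene CHKB-CPT1B, which had 1 to 7 counts, and lies next to CHKB, which had 8 to 19. How reads shared by such genes were counted is not stated, so the level of CPT1B is uncertain.

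**Figure D2:**
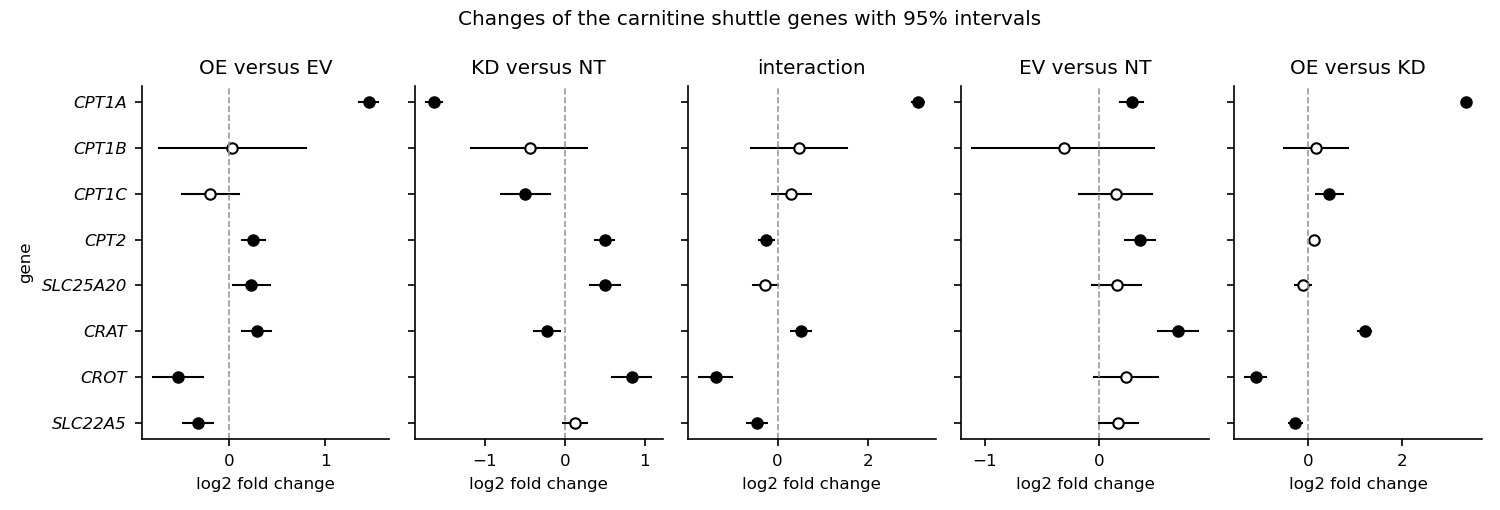
Log2 fold change of each carnitine shuttle gene with its 95% interval in 5 comparisons (edgeR, filled points at an adjusted p under 0.05, axes differ between panels). In the interaction panel CROT was at -1.36, CRAT at 0.51 and SLC22A5 at -0.45.

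Whether the arms differed was tested directly with the interaction, in which the knockdown change is subtracted from the over-expression change. Of the 8 genes, 5 passed (2 higher, 3 lower), where 44.3% of all tested genes passed, 20.3% higher and 24% lower, and 2 of the 8 passed 0.0001 (15.9% of tested genes). CROT had the largest difference after CPT1A, at -1.36 (SE 0.175, 95% interval -1.73 to -1.0, adjusted p 7.73e-07 by edgeR). CRAT followed at 0.51 (95% interval 0.29 to 0.73, adjusted p 0.000394) and SLC22A5 at -0.45 (95% interval -0.67 to -0.23, adjusted p 0.00116), both by edgeR. SLC22A5 was therefore called for the difference between arms although its knockdown change alone was not. CPT2 rose by less with the cDNA than with the shRNA (-0.24, 95% interval -0.42 to -0.07, adjusted p 0.0188 by edgeR), and that call was lost without NT 2, KD 1, EV 1 or OE 1, with adjusted p of 0.0969, 0.0604, 0.171 and 0.0526. For SLC25A20 the difference was -0.27 (95% interval -0.54 to 0.00, adjusted p 0.1 by edgeR), which did not pass, and it passed with scaling by library size only (-0.40, adjusted p 0.0134). For CPT1C it was 0.30 (95% interval -0.13 to 0.73) and for CPT1B 0.47 (95% interval -0.58 to 1.53), and neither passed.

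The control lines differed from each other. EV against NT tests the empty vector line, selected in Blasticin, against the shRNA control line, selected in puromycin, so vector and drug cannot be told apart. Of the 8 genes 3 passed, 3 higher in EV and 0 lower, where 34.1% of all tested genes passed, 18.5% higher and 15.5% lower. At 0.0001 there were 2 (8.16% of tested genes), and the samples did not overlap for 7 of the 8 (68.1% of tested genes). CRAT rose most, by a log2 fold change of 0.69 (SE 0.083, 95% interval 0.52 to 0.87, adjusted p 6.53e-07 by edgeR), a 1.62-fold difference. CPT2 was higher by 0.36 (SE 0.0651, adjusted p 0.000132 by edgeR) and CPT1A by 0.29 (adjusted p 9.8e-05). The value of CRAT for the vector lines was thus larger than its value in either arm, 0.29 and -0.22. CROT (0.24), SLC22A5 (0.17), SLC25A20 (0.16), CPT1C (0.15) and CPT1B (-0.31) did not pass.

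OE against KD, the contrast without controls, passed 5 of the 8 genes (3 higher, 2 lower), where 59.8% of all tested genes passed, 29.2% higher and 30.6% lower. At 0.0001 there were 3 (31.9% of tested genes), and the samples did not overlap for 6 (63.2% of tested genes). CPT1A was 10.4-fold higher in OE than in KD, and CRAT was 2.31-fold higher (log2 fold change 1.21, adjusted p 2.71e-13 by edgeR). This value of CRAT contains the difference of the control lines. CROT was lower by 1.12 on the log2 scale in OE (adjusted p 3.86e-09 by edgeR), and its difference between the controls did not pass. CPT1C was higher by 0.45 (adjusted p 0.00701 by edgeR), a call lost without KD 1 (0.32, 0.054), without OE 1 (0.33, 0.0652) and with library size only. SLC22A5 was lower, at -0.28 (adjusted p 0.000958 by edgeR). CPT2 was at 0.12 (95% interval 0.01 to 0.22, adjusted p 0.0555 by edgeR) and SLC25A20 at -0.11 (adjusted p 0.235), and neither passed. SLC25A20 passed with library size only (-0.24, adjusted p 0.0109 by edgeR). CPT2 passed without KD 1 (0.15, adjusted p 0.0382 by edgeR), without KD 2 (0.14, 0.0213), with DESeq2 size factors (0.12, 0.0457), with limma-voom (0.12, 0.0483) and in the fit with the replicate number as a block (0.12, 0.0445), which gave 6 called genes. With scaling by library size only the sign of CPT2 turned (-0.014).

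The make-up of the shuttle transcripts followed from these changes. CPT1A took 66.2% ± 0.0658 (SD, n = 2) of the counts of the 8 genes in NT, 34.2% ± 0.765 (n = 3) in KD, 64.6% ± 0.0255 (n = 2) in EV and 82.0% ± 0.359 (n = 3) in OE. The 7 other genes summed to 134.4 CPM in NT and 162.5 in KD, and 176.4 in EV against 193.2 in OE, higher in each manipulated line than in its control. In this sum the 3 KD samples lay above the 2 NT samples, and the 3 OE samples (186.8 to 199.0 CPM) lay above the 2 EV samples (174.3 to 178.4 CPM). The TMM scaling factor was 0.954 for OE 1, the lowest OE sample, and 1.01 for EV 1, the highest EV sample. The order of these samples therefore depends on the scaling. The 2 controls stood farther apart in the sum than either manipulated line did from its control. Not all 7 genes rose: CROT and SLC22A5 were called lower in OE, and CRAT and CPT1C in KD. CPT1A counts were 5.56 times those of CPT2 in NT and 1.27 times in KD. The ratio was 5.29 in EV and 12.2 in OE. CRAT counts were 3.33 times those of CROT in NT and 1.64 times in KD, and 4.56 times in EV against 8.30 times in OE. In this ratio KD 2 (2.14) and OE 2 (10.4) were each the highest of their line. Among the counts of the 3 CPT1 isoforms, CPT1C made up 1.93% in NT and 4.14% in KD, and 1.76% in EV against 0.568% in OE. These shares also move with the CPT1A counts, and they include the uncertain CPT1B counts.

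**Figure D3:**
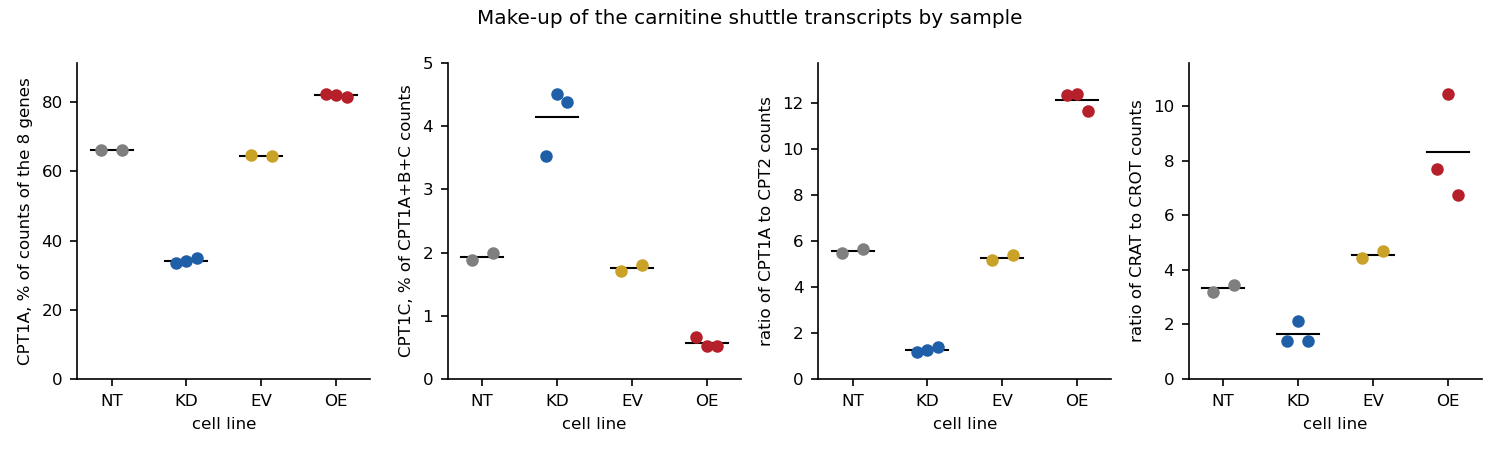
CPT1A as a percentage of the counts of the 8 shuttle genes, CPT1C as a percentage of the counts of the 3 CPT1 isoforms, and the ratios of CPT1A to CPT2 and of CRAT to CROT counts, for each sample with line means as bars. CPT1A took 33.5 to 35.0% of shuttle counts in KD and 81.6 to 82.3% in OE.

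Levels were compared between genes as CPM per kilobase of the union of annotated exons. In NT the order was CPT1A (40.1 CPM per kb), SLC25A20 (6.27), CPT2 (4.70) and CRAT (4.68), CROT (2.13), SLC22A5 (1.26), CPT1C (0.888) and CPT1B (0.174). CPT2 and CRAT overlapped between samples, and other neighbours in this order did not. In KD CPT1A fell to 12.9 CPM per kb and was still the highest, ahead of SLC25A20 at 8.88 and CPT2 at 6.64, and CRAT (4.01) and CROT (3.79) overlapped. In EV the level of CRAT, 7.56 CPM per kb, was above those of SLC25A20 (7.0) and CPT2 (6.03). In OE CRAT was at 9.25 CPM per kb, SLC25A20 at 8.23 and CPT2 at 7.19, below CPT1A at 134.2, whose introduced copy is shorter than the annotated gene. With the longest transcript as length, CPT2 in NT was at 10.4 CPM per kb and SLC25A20 at 6.69, so their order turned. On that length CPT2 also led in KD (14.8, SLC25A20 9.48) among the genes after CPT1A. Its mean was the highest of these in EV (13.4, CRAT 12.8, SLC25A20 7.47) and in OE (16.0, CRAT 15.7). In EV and in OE the samples of CPT2 and CRAT overlapped, so their order there is not settled. CPT1A made up 97.4% of the summed CPM per kb of the CPT1 isoforms in NT and 94.5% in KD, and 97.8% in EV against 99.3% in OE. These shares include CPT1B, whose level is uncertain because the counting of reads shared with CHKB-CPT1B is not stated.

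**Figure D4:**
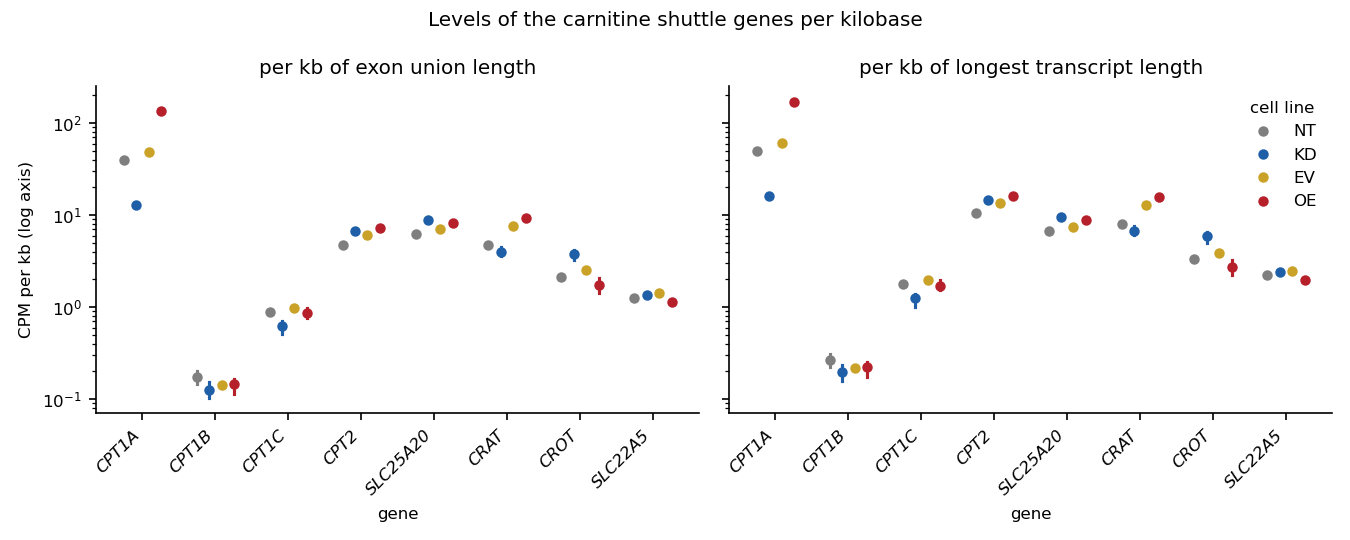
Level of the carnitine shuttle genes in CPM per kb on a log axis, by line, with the union of exons (left) or the longest transcript (right) as length. Points are line means and bars span the samples, and CPT1A stood highest in each line, from 12.9 CPM per kb in KD to 134.2 in OE on the left.

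The genes whose profile over the 10 samples lay nearest to that of CPT1A were sought among 12717 tested genes, by the root mean square distance of log2 CPM centred on each gene's mean. They were CAMK2N1 (0.403), AC090971.3 (0.409), MAFF (0.419), DUSP27 (0.420) and CTH (0.426). CTH, the cystathionine gamma-lyase of cysteine synthesis, had mean levels of 40.7 CPM in NT and 12.6 in KD, and 37.7 in EV against 68.2 in OE. CAMK2N1, an inhibitor of CaM kinase II, had 52.3, 17, 32.7 and 120.1 CPM in the same lines. Nearest to the turned profile were PEG10 (0.405), ZNF385B (0.428) and PLEKHS1 (0.438). PEG10, a gene derived from a retrotransposon, had 8.56 CPM in NT and 17.7 in KD, and 9.66 in EV against 2.01 in OE. Of the shuttle genes, CRAT was at a distance of 0.856 from the CPT1A profile and CROT at 0.899 from the turned profile, against 1.31 for a flat profile. The distance of CRAT also contains its difference between the control lines (EV against NT 0.69), which was larger than its change in either arm.

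Carnitine supply was followed in 7 genes, of which 3 were tested. BBOX1, the last enzyme of carnitine synthesis, and TMLHE, which hydroxylates trimethyllysine at the start of it, were listed at 0 in all 10 samples, as was the carnitine carrier SLC6A14, and SLC22A16 had at most 3 counts. Whether TMLHE was counted under another symbol was not tested, and its 0 is not read as absence. SLC16A9, a carrier reported to export carnitine, was at 11.9 CPM in NT and 5.81 in KD, a log2 fold change of -1.04 (adjusted p 8.1e-09 by edgeR). It was at 9.20 CPM in EV and 9.27 in OE, and the difference between the arms was 1.05 (adjusted p 3.3e-06 by edgeR). ALDH9A1, which acts in the middle of carnitine synthesis, rose by 0.20 with the cDNA (adjusted p 0.0017 by edgeR) and had an interaction of 0.21 (0.017). With library size only these were 0.10 (adjusted p 0.0596) and 0.077 (0.322), and the interaction call was also lost without NT 2 (0.0624) or EV 2 (0.0958), all by edgeR. SLC22A4, a relative of SLC22A5, fell by 1.11 on the log2 scale with the cDNA (adjusted p 0.0382 by edgeR), at 0.534 CPM in EV and 0.247 in OE. That call was lost by the DESeq2 Wald test (adjusted p 0.144), with no filter, and without NT 2, EV 1 (-0.69), OE 1, OE 2 or OE 3. Of the 3 tested genes, 2 passed in OE against EV (1 higher, 1 lower), 1 in KD against NT (lower) and 2 in the interaction (both higher), where 52%, 57.5% and 44.3% of all tested genes passed. The medians were 0.01, -0.54 and 0.21 beside -0.02 over all tested genes in each.

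Malonyl-CoA, the inhibitor of CPT1, was followed in 9 tested genes: the enzymes that make it (ACACA and ACACB) or remove it (MLYCD) and 6 subunits of AMPK, the kinase that inhibits the carboxylases. In KD against NT 8 passed (3 higher, 5 lower), in OE against EV 3 (2 higher, 1 lower) and in the interaction 5 (2 higher, 3 lower), where 57.5%, 52% and 44.3% of all tested genes passed. Their medians were -0.23, -0.12 and 0.12, beside -0.02 over all tested genes in each. ACACA, the cytosolic acetyl-CoA carboxylase, rose by 0.74 with the shRNA and 0.17 with the cDNA (the cDNA call was lost with library size only, 0.071), with an interaction of -0.57 (adjusted p 8.1e-08 by edgeR). ACACB, the carboxylase at mitochondria, rose by 0.32 with the shRNA and was lower by 0.29 with the cDNA (interaction -0.61, adjusted p 0.0002 by edgeR). Without EV 2 its cDNA call was lost (-0.17, adjusted p 0.205 by edgeR). MLYCD, which degrades malonyl-CoA, rose by 0.30 with the shRNA (interaction -0.36, adjusted p 0.0043 by edgeR). PRKAG1, a regulatory subunit of AMPK, rose by 0.24 with the cDNA and was lower by 0.25 with the shRNA (interaction 0.48, adjusted p 1.1e-05 by edgeR). ACACA was also higher in EV than in NT, by 0.65, and MLYCD by 0.62.

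Of 13 PPAR regulators and targets 11 were tested, since PDK4 had at most 1 count and PLIN2 at most 12. PPAR factors are nuclear receptors that switch on genes of fatty acid use, CPT1A among them. In OE against EV 7 passed (4 higher, 3 lower), in KD against NT 7 (6 higher, 1 lower) and in the interaction 6 (1 higher, 5 lower), with medians of -0.11, 0.26 and -0.14. These counts stand beside 52%, 57.5% and 44.3% of all tested genes, and the medians beside -0.02. PPARGC1B, a coactivator of mitochondrial genes, rose by 0.64 with the shRNA and was at -0.35 with the cDNA (interaction -1.0, adjusted p 3.8e-08 by edgeR), the same signs as CROT. RXRB, a partner of the PPAR factors, was at -0.38 and 0.38 (interaction 0.76, adjusted p 1.7e-07 by edgeR), the same signs as CPT1A and CRAT. PPARG was lower by 0.58 with the cDNA, at 18.4 CPM in EV and 12.3 in OE. It was at 8.84 CPM in NT and 9.85 in KD, and the controls differed by more (EV against NT 1.06, adjusted p 2.8e-08 by edgeR).

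The neighbouring steps were 9 tested genes for the activation of fatty acids before the shuttle, their oxidation after it, and VDAC1, a channel of the outer mitochondrial membrane. In OE against EV 5 passed (3 higher, 2 lower), in KD against NT 6 (5 higher, 1 lower) and in the interaction 4 (1 higher, 3 lower), with medians of 0.05, 0.37 and -0.56. Among all tested genes 52%, 57.5% and 44.3% passed and the median was -0.02. ACSL3, an acyl-CoA synthetase that is androgen-responsive in prostate cells, rose by 1.1 with the shRNA and was at -0.71 with the cDNA (interaction -1.81, adjusted p 9.0e-14 by edgeR). Its level was 171.2 CPM in NT and 367.9 in KD, and 435.9 in EV against 267.0 in OE. The control lines differed by more than either arm (EV against NT 1.35, adjusted p 3.2e-13 by edgeR). OE against KD was at -0.46 (adjusted p 1.5e-07 by edgeR). ACSL4, which prefers arachidonate, was lower by 1.24 on the log2 scale with the cDNA, at 5.66 CPM in EV and 2.38 in OE. NT was at 2.33 CPM and KD at 3.0, so EV stood apart (EV against NT 1.28, adjusted p 1.3e-05 by edgeR), and OE against KD did not pass (-0.32, adjusted p 0.116). ACSL1, a long-chain synthetase, rose by 0.71 with the shRNA and 0.15 with the cDNA. Its cDNA call was lost with library size only (0.056, adjusted p 0.281 by edgeR) and without EV 1 (0.15, 0.0825). HADHB, a subunit of the trifunctional protein, was at -0.25 with the shRNA and had an interaction of 0.34.

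**Figure D5:**
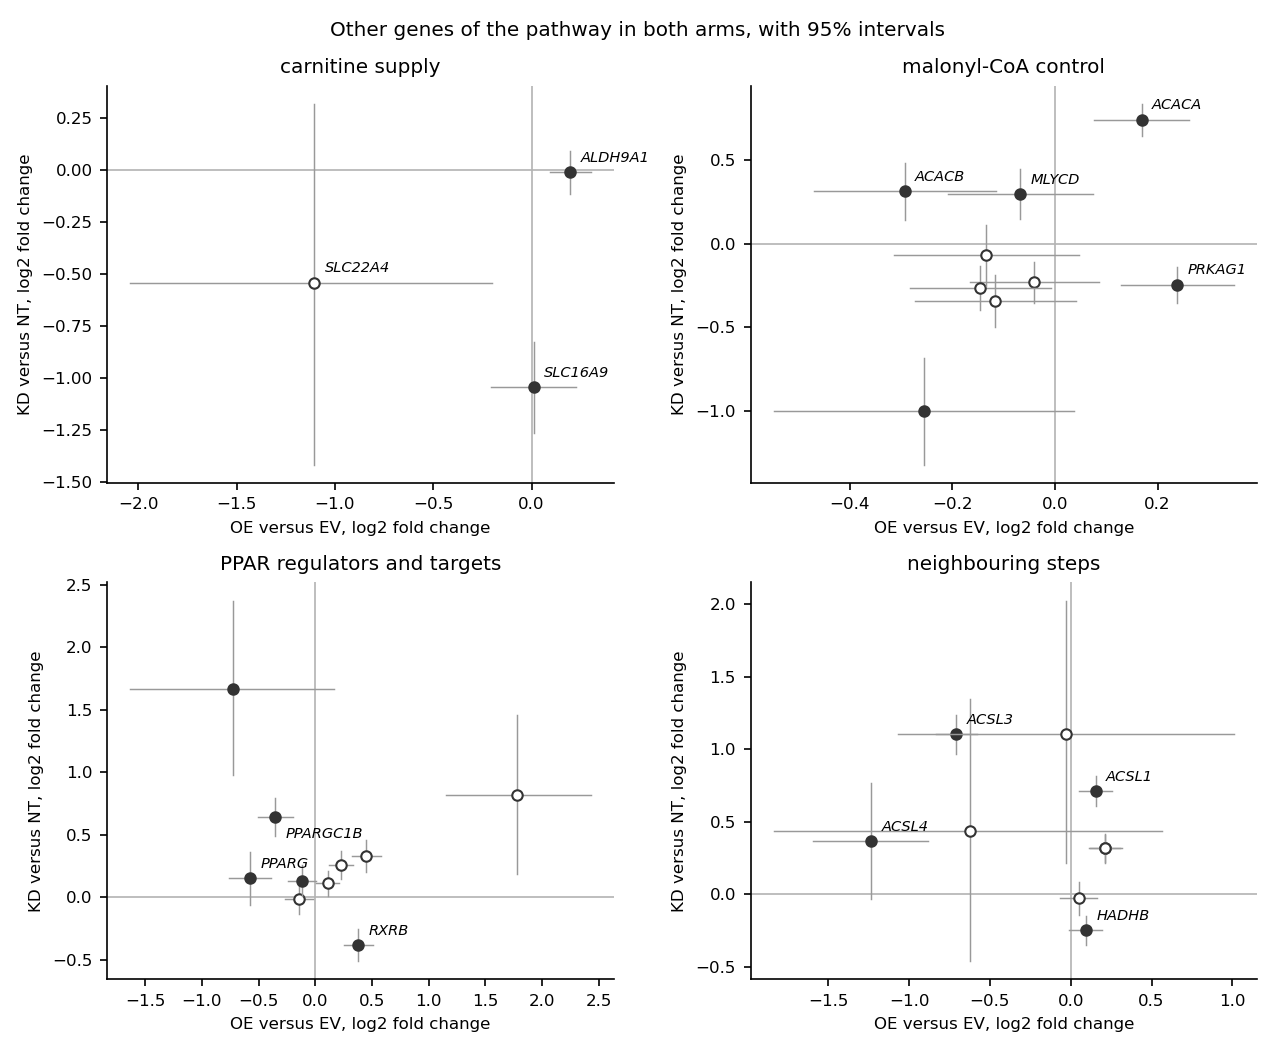
Log2 fold change of OE against EV (horizontal) and KD against NT (vertical), with 95% intervals, for the tested genes of the 4 lists apart from 1 that is not shown, named for up to 4 genes a list (filled points at an interaction adjusted p under 0.05). ACSL3 lay at -0.71 and 1.1, and SLC16A9 was at -1.04 on the vertical axis.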

How the data were processed

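Poly(A) RNA counts of 10 LNCaP-C4-2 samples were analysed. The authors trimmed paired reads of 150 bases with BBDuk, aligned and counted them per gene with STAR 2.6.0a on Ensembl hg38, and deposited whole-number counts for 57353 gene symbols. Strand use and the handling of ambiguous reads are not given in the sources used here. Groups and replicate numbers came from the labels.

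Counts passing filterByExpr (17230 genes) were TMM-scaled. A model with 1 mean per line was fitted to the 10 samples with the quasi-likelihood method of edgeR 4.0.16 (R 4.3.3). Benjamini-Hochberg adjustment covered all tested genes, and 0.05 was the limit. Alternatives used DESeq2 1.42.0, limma 3.58.1 (voom), other scalings and filters, and leaving out each sample. Without an EV or NT sample its line has 1 sample, which is assumed to vary like the other lines. The common biological coefficient of variation was 0.0446, and a floor of 3 counts was 0.0995 to 0.136 CPM. Counting limits cover counting error only.

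Named are the 8 genes, genes overlapping them, up to 4 genes a list by interaction p, and the 5 genes nearest to the CPT1A profile and 3 to the turned profile, at an average log2 CPM of at least 1. Of the list and marker genes, 2 are not reported by name here. Untested list genes were named after their values were seen. The genes and lists were chosen with earlier results of these data known. Exon lengths and positions came from GENCODE v44 (the same build, later than the authors' annotation).

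Same-numbered samples did not deviate together: the mean correlation of their deviations was -0.00282 over 13 pairs (-0.0443 to 0.0783), against 0.00156 over 24 other pairs.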

Additional observations from a re-analysis of the deposited data

How the results depend on the processing

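Of 696 comparisons of a shuttle gene's change with an alternative, 666 kept both direction and side of the 0.05 limit, 18 lost the call, 7 gained it and 5 changed sign. The sign changed for CPT1B in OE against EV, a gene of at most 22 counts, at -0.065 with library size only and from -0.066 to 0.19 over the fits that left out a sample, and for CPT2 in OE against KD, at -0.014 with library size only. Scaling by library size only moved the median of all tested genes from -0.02 to -0.12 in OE against EV and to -0.15 in the interaction and in OE against KD; the cause was not tested. At the study's adjusted p limit of 0.0001 the genes called numbered 1 in OE against EV, 2 in the interaction and 3 in OE against KD. With the longest transcript as length, NT levels per kb were 50.3 for CPT1A, 0.268 for CPT1B, 1.77 for CPT1C, 10.4 for CPT2, 7.92 for CRAT, 3.31 for CROT and 2.22 for SLC22A5. In raw counts, which include the uncertain CPT1B counts, CPT1A took 97.8% of CPT1 in NT and 95.3% in KD, and 98.1% in EV against 99.4% in OE. By line means, 3 of the 5 genes nearest to CPT1A were the same. The replicate numbers were treated as sample names only in the main fit. With them as a block the genes called were 6 of 8 in OE against EV, 6 in KD against NT and 3 in EV against NT. They were 5 in the interaction and 6 in OE against KD, and CROT in OE against EV was at -0.65. Depth limits CPT1B most, with 11 to 22 counts, and how its reads shared with CHKB-CPT1B were counted is not stated.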
